A study of Mus musculus with 21 samples.

Results

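The chemokine receptors of conventional dendritic cells (cDCs) were followed as 9 genes of the 37734 in the deposited RNAseq files, namely Ccr7, Xcr1, Ccr2, Cx3cr1, Ccr1, Ccr6, Ccr9, Cxcr3 and Cxcr4, which were taken by gene name. The cells came from the spleen and thymus of C57BL/6 mice aged 6 to 8 weeks, pooled between animals, released by enzymatic digestion, enriched with CD11c beads and FACS-sorted. No genetic change and no drug is named in the labels for any group. Expression is given as the normalized read count, the number of reads of a gene in a library divided by a size factor for that library. There were 21 libraries in 6 groups. Immature cells, sorted as negative for CCR7 and Esam, were splenic cDC1 (5 libraries), splenic cDC2 (3), thymic cDC1 (4) and thymic cDC2 (3). Mature cells, sorted as positive for CCR7 and Esam, were thymic cDC1 (3) and thymic cDC2 (3), and no mature splenic cells are among the samples. The cDC1 gate took CD24+ CD11b- CD11c+ cells without F4/80, Ly6g, Ly6c, DX5 or B220, and the cDC2 gate took CD11b+ CD11c+ cells without B220 or CD24. The labels name F4/80 and Ly6c for the cDC1 gate only, while the definition of cDC2 in the study's flow cytometry of NOD mice also leaves out F4/80+ cells.

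Chemokine receptors are G protein-coupled receptors with which leukocytes sense gradients of small secreted proteins, the chemokines, and move towards their source. Immature dendritic cells use several of them to enter and hold positions in tissues, and on maturation they gain CCR7, the receptor for CCL19 and CCL21 that leads them to T cell zones. In the thymus, CCR7 and XCR1 ligands are made in the medulla, where dendritic cells meet developing T cells.

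The sorted groups carried the transcripts of their labels. The summed normalized read count of 7 cDC1 markers other than Xcr1 (Clec9a, Cadm1, Tlr3, Itgae, Irf8, Batf3 and Cd24a) was 85464 to 103739 in immature cDC1 and 3343 to 13804 in immature cDC2. That of 7 cDC2 markers (Sirpa, Itgam, Cd209a, Mgl2, Clec4a4, Irf4 and Clec10a) was 40816 to 66471 in immature cDC2 and 551 to 3425 in immature cDC1. Cd24a and Itgam encode CD24 and CD11b, which were gates, so their part in these sums does not check the sort independently. Both signatures were less distinct in mature cells, where the cDC1 sum was 42826 to 47415 in cDC1 and 16995 to 24476 in cDC2, while the cDC2 sum was 2114 to 3624 and 14073 to 18224. Depth was 14266867 to 40119669 recovered reads per library. Splenic cDC1 replicates 4 and 5 came from the same pool, index and lane. A chi-square test of their counts, scaled by its degrees of freedom, gave 2.53, and gave 26.9 to 190.4 in the remaining 9 pairs of this group, so that both were averaged into 1 sample and 20 samples were compared. Splenic cDC1 replicate 1, from lane 5, carries the same pool number and was kept as its own sample. It was 58.7 and 51.5 from replicates 4 and 5. On the same measure mature cDC2 replicate 3 was 155 and 135 from the other two, which were 29.1 from each other, and splenic cDC1 replicate 3 also stood apart. Summed markers of T cells, which also carry Ccr9, Cxcr4 and Ccr7, were 1278 to 3099 in mature and 259 to 483 in immature thymic samples, and their part in these genes was not tested. Those of B cells were at most 1004 and those of NK cells at most 5875, the latter in splenic cDC2, and those of neutrophils at most 24.3. All mature libraries were sequenced in lane 8, as were 3 libraries of immature thymic cDC1 and 2 of immature thymic cDC2. All 9 receptors passed the filter on low values.

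Compared per kb of exon, Ccr7 made up most of the receptor transcript of mature cells and, on average, 4.04% (splenic cDC1) to 26.4% (splenic cDC2) of that of immature cells. The 9 receptors together had a normalized read count per kb of 56308 ± 9584 (SD, n = 3) in mature cDC1 and 52648 ± 7333 (SD, n = 3) in mature cDC2, and Ccr7 accounted for 99.0% ± 0.407 and 96.0% ± 0.943 of these (SD, n = 3 each). In the immature groups the sum of all 9 lay between 5698 and 6989 per kb on average. Without Ccr7, the remaining 8 receptors summed to 5478 ± 754 per kb in splenic cDC1, 5939 ± 537 in immature thymic cDC1, 5077 ± 633 in splenic cDC2 and 5161 ± 465 in immature thymic cDC2 (SD, n = 4, 4, 3 and 3). The samples of these 4 groups overlapped in this sum, while its makeup differed. Xcr1 was the leading receptor of this sum in immature cDC1, with 50.9% in the spleen and 72.1% in the thymus, followed by Cxcr4 with 34.8% and 16.1%. Cxcr4 led in immature cDC2, with 80.4% in the spleen and 51.1% in the thymus, where Ccr2 came next with 33.0%. In mature cells the sum of the 8 was 582 ± 311 per kb in cDC1 and 2128 ± 647 in cDC2 (SD, n = 3), which is 10.2-fold and 2.42-fold below the immature thymic cells of the same subset. In sorted pools, fewer cells with a transcript and less of it per cell cannot be told apart.

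**Figure D1:**
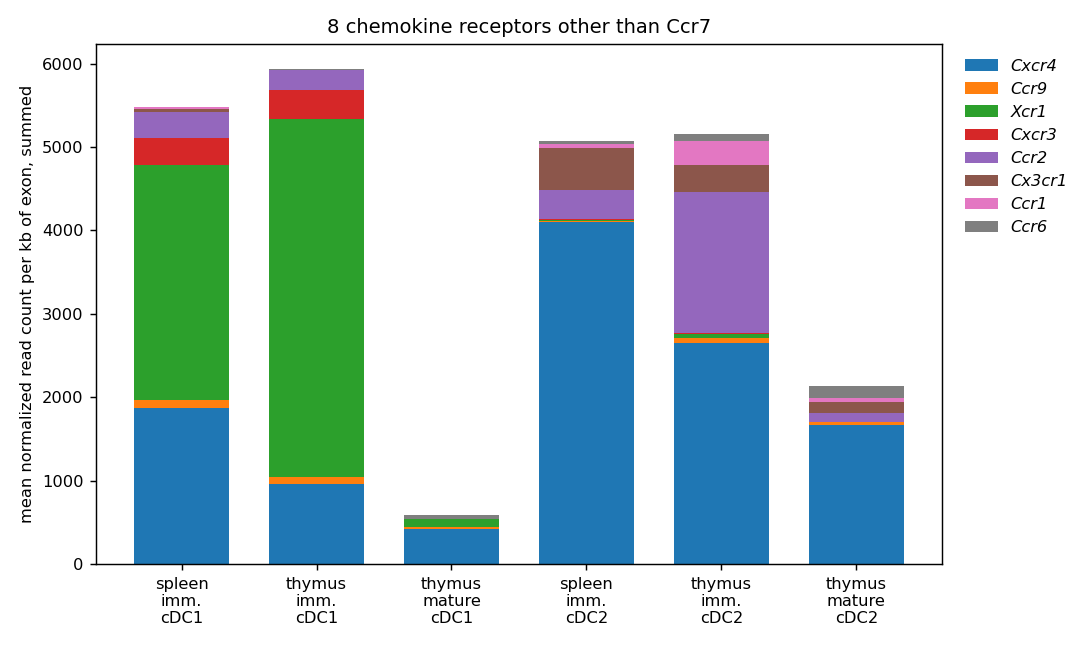
Mean normalized read count per kb of exon (vertical axis, linear) of the 8 receptors other than Ccr7, stacked for the 6 groups on the horizontal axis (imm., immature). The 4 immature groups sum to between 5077 and 5939 per kb, mature cDC1 to 582 and mature cDC2 to 2128, and Xcr1 makes up most of the bars of immature cDC1.

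Ccr7 (ENSMUSG00000037944, mm10 chr11:99144196-99155077, minus strand) was the gate that split mature from immature cells, so its levels check the sort and were not tested between them. Its normalized read counts were 409.7, 261, 726 and 341 in splenic cDC1, 709.6, 556, 966 and 624 in immature thymic cDC1, and 92666, 108484 and 129531 in mature cDC1. In cDC2 they were 3907, 2008 and 5433 in the spleen, 2662, 3608 and 3986 in immature thymic cells, and 92491, 115572 and 91722 in mature thymic cells. Every mature sample was above every immature one, with means 154-fold apart in thymic cDC1 and 29.2-fold apart in thymic cDC2, and the samples of both mature groups overlapped. Within the cells sorted as CCR7-negative, Ccr7 was higher in cDC2 than in cDC1, with no overlap between subsets in either organ. The log2 fold change was 3.11 (SE 0.31, adjusted p = 1.44e-07) in the spleen and 2.27 (SE 0.31, adjusted p = 1.05e-05) in the thymus. It was -0.14 (95% interval -0.83 to 0.55, adjusted p = 0.813) in mature cells. Between organs Ccr7 did not pass the threshold in cDC1 (log2 fold change 0.79, SE 0.29, adjusted p = 0.0839, below the required 2-fold) or in cDC2 (-0.05, 95% interval -0.74 to 0.64, adjusted p = 0.941), though without splenic cDC1 replicate 3 it did in cDC1 (1.07, adjusted p = 0.00889). Other markers of mature cells were Esam, Fscn1, Ccl22, Cd40, Relb, Marcksl1 and Socs2. Their summed level was 371133 to 504350 in mature cDC1 and 344302 to 474353 in mature cDC2. In immature cDC1 it was 3585 to 7024 in the spleen and 6817 to 10720 in the thymus. In immature cDC2 it was 8881 to 19249 in the spleen and 26906 to 37222 in the thymus. Esam was a gate as well, so its part in this sum does not check the sort independently. The part of mature cells in the Ccr7 values of the immature groups was not tested.

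**Figure D2:**
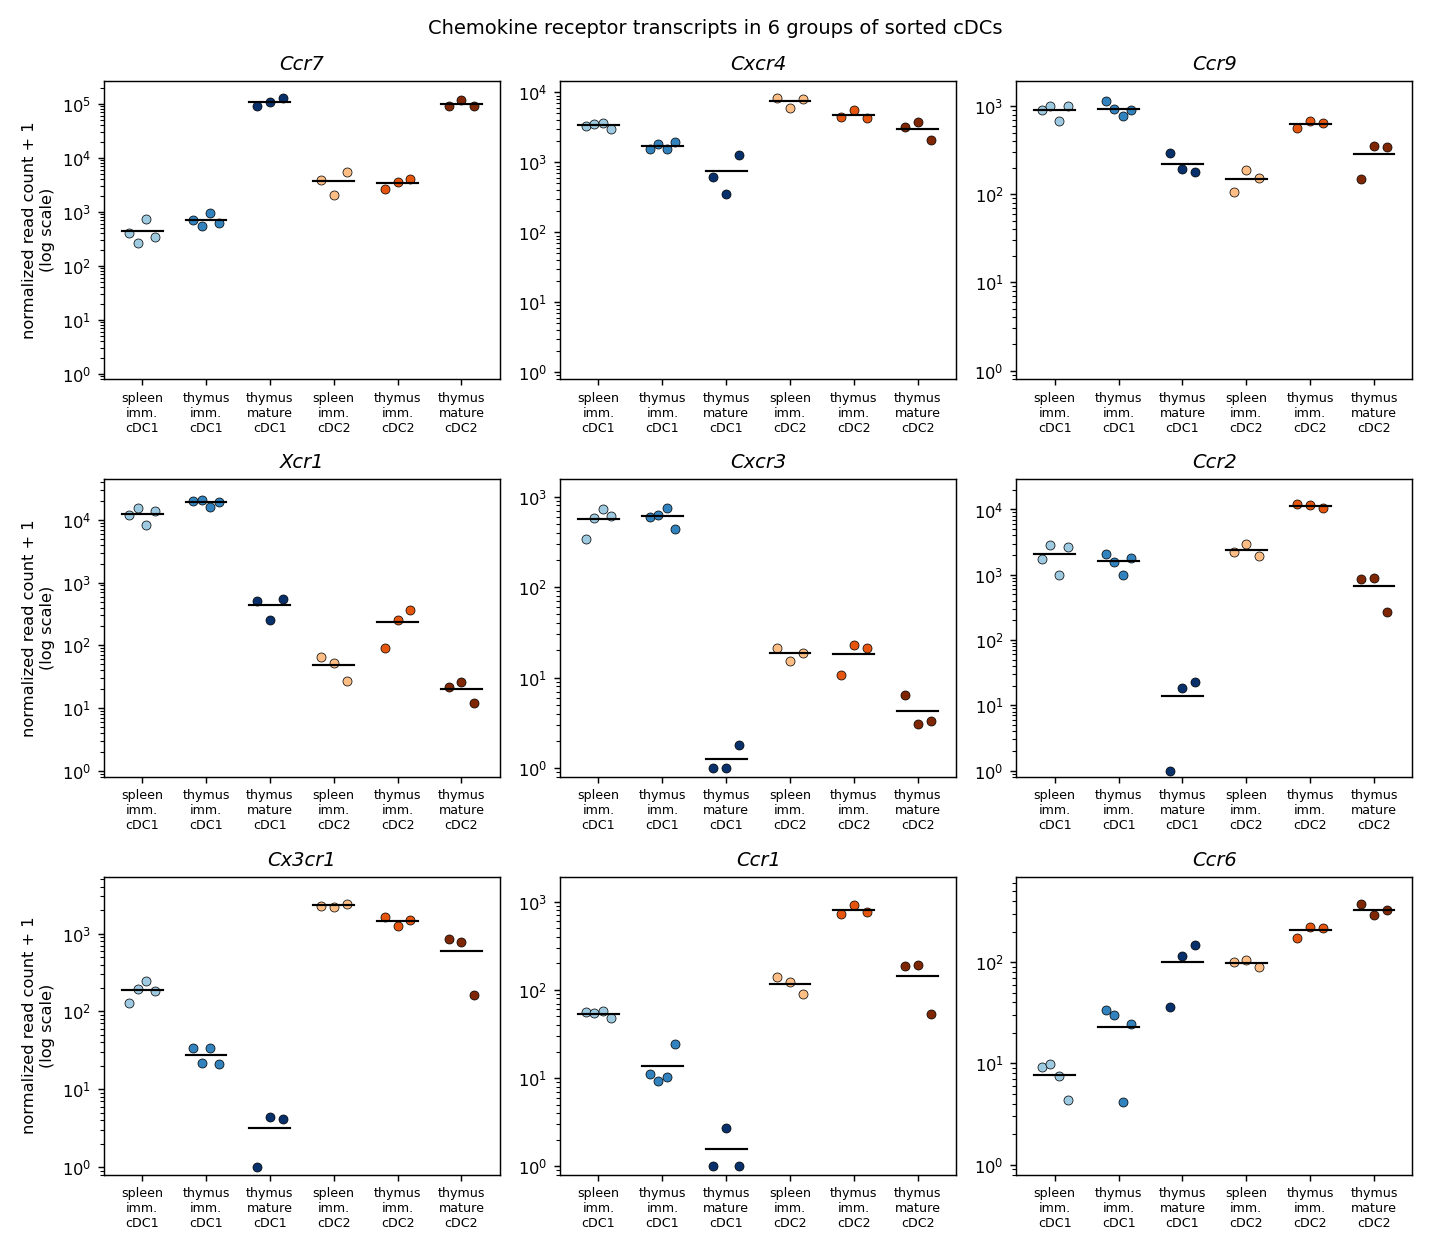
Normalized read count plus 1 (vertical axes, log scale) of the 9 receptors in each of the 20 samples, by group (imm., immature), with group means as bars. Ccr7 is high in both mature groups, Xcr1 and Cxcr3 are high in immature cDC1, and Ccr2, Cx3cr1 and Ccr1 fall towards 0 in mature cDC1 but not in mature cDC2.

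Xcr1 and Cxcr3 were the receptors of immature cDC1. Xcr1 (ENSMUSG00000060509, chr9:123852315-123862029, minus strand) encodes the receptor for XCL1, a chemokine of NK cells, T cells and medullary epithelium. Its normalized read counts were 12175, 15629, 8385 and 14077 in splenic cDC1, 20274, 20744, 16194 and 19180.1 in immature thymic cDC1, and 511, 253 and 557 in mature cDC1. In cDC2 they were 64.1, 50.6 and 26.1 in the spleen, 88.6, 251 and 364 in immature and 20.7, 25.1 and 11.0 in mature thymic cells. No mature sample overlapped the immature thymic samples of its subset. Xcr1 fell 43.4-fold with maturation in cDC1 (log2 fold change -5.51, SE 0.40, adjusted p = 3.16e-10) and 12.4-fold in cDC2 (-3.42, SE 0.43, adjusted p = 1.55e-06). Its level in mature cDC1, 440.3 ± 164 (SD, n = 3), was still 23.3-fold above that in mature cDC2. The summed level of the other cDC1 markers fell with it in cDC1, from 101034 ± 3770 (SD, n = 4) to 44567 ± 2486 (SD, n = 3), while in cDC2 it went from 11757 ± 2362 to 20686 ± 3742 (SD, n = 3 each). Most of the latter was Irf8, with means of 2467 in immature and 13787 in mature cells, and Batf3 (648 and 4532), whereas Clec9a (351 and 36.0), Cadm1 (181 and 101), Tlr3 (347 and 31.5) and Itgae (5655 and 60.6) had lower means in mature cDC2, as Xcr1 did. Within immature thymic cDC2 it was 9173, 12294 and 13804 in the samples whose Xcr1 values were 88.6, 251 and 364. The part of cDC1 in the Xcr1 values of cDC2 was not tested. Between organs Xcr1 was higher in thymic than in splenic cDC2 (log2 fold change 2.17, SE 0.43, adjusted p = 0.00100), and was 0.63 (adjusted p = 0.259) within lane 5, which holds only 1 thymic cDC2 sample. In cDC1 the samples did not overlap either, but the change of 0.63 (SE 0.37, adjusted p = 0.364) did not pass the threshold.

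Cxcr3 (ENSMUSG00000050232, chrX:101731535-101734269, minus strand), the receptor for the interferon-induced chemokines CXCL9, CXCL10 and CXCL11, had normalized read counts of 338, 585, 736 and 603 in splenic cDC1 and 591, 631, 752 and 436 in immature thymic cDC1. In mature cDC1 it had 0, 0 and 0.80, which is 1 read in the 3 libraries together. In cDC2 the values were 20.1, 14.4 and 17.9 in the spleen, 9.61, 22.1 and 20.2 in immature and 5.37, 2.09 and 2.35 in mature thymic cells. Cxcr3 was thus low in every cDC2 sample and all but absent from mature cDC1. The ratio of immature to mature thymic cDC1 was 1400 (exact 95% counting interval 251 to 55310), and the fitted log2 fold change, which depends on the pseudocount at such levels, was -8.93 (SE 0.41, adjusted p = 3.33e-13). In cDC2 it fell by 2.10 on the log2 scale (SE 0.44, adjusted p = 5.22e-04). The change between organs was 0.12 (95% interval -0.68 to 0.92) in cDC1 and -0.08 (SE 0.44, adjusted p = 0.931) in cDC2, neither past the threshold, and both signs turned within lane 8.

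Ccr2, Cx3cr1 and Ccr1, receptors best known from monocytes and their descendants, were higher in cDC2 than in cDC1 in both immature and mature thymic cells, and in the spleen only Cx3cr1 passed that test. Ccr2 (ENSMUSG00000049103, chr9:124101950-124113557, plus strand) binds CCL2, CCL7 and CCL12 and lets cells leave the bone marrow. Its normalized read counts were 1744, 2829.5, 986 and 2693 in splenic cDC1, 2085, 1546, 978 and 1781 in immature thymic cDC1, and 0, 17.3 and 21.6 in mature cDC1. In cDC2 they were 2218, 2969 and 1926 in the spleen, 12282, 11607 and 10539 in immature and 869.8, 903 and 268 in mature thymic cells. Immature thymic cDC2 were above every other sample, and mature cDC1 below every other sample. With maturation Ccr2 fell 123-fold in cDC1 (log2 fold change -7.69, SE 0.72, adjusted p = 1.23e-08) and 16.9-fold in cDC2 (-4.26, SE 0.77, adjusted p = 1.09e-04). Thymic cDC2 had 4.84-fold more than splenic cDC2 (2.30, SE 0.77, adjusted p = 0.0387), a call that was lost within lane 8 (2.52, adjusted p = 0.291) and without splenic cDC2 replicate 3 (2.16, adjusted p = 0.114). In cDC1 the difference between organs was -0.31 (95% interval -1.69 to 1.08, adjusted p = 0.873).

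Cx3cr1 (ENSMUSG00000052336, chr9:119901616-120069879, minus strand), the fractalkine receptor, had normalized read counts of 129, 192, 246 and 185 in splenic cDC1, 32.9, 20.8, 32.8 and 20.2 in immature thymic cDC1, and 0, 3.47 and 3.20 in mature cDC1. In cDC2 the values were 2274, 2189 and 2434 in the spleen, 1623, 1263 and 1478 in immature and 849.9, 775 and 160.1 in mature thymic cells. In both subsets the order was spleen, immature thymus, mature thymus, without overlap between neighbours. The step from spleen to thymus passed the threshold in cDC1 (log2 fold change -2.77, SE 0.47, adjusted p = 2.69e-04) and not in cDC2 (-0.67, 95% interval -1.80 to 0.47, adjusted p = 0.440). The step to mature cells passed in cDC1 (-3.34, SE 0.51, adjusted p = 9.80e-06) and in cDC2 (-1.61, SE 0.54, adjusted p = 0.0190). In cDC2 the latter was lost within lane 8 (-1.53, adjusted p = 0.116), with a pseudocount of 0.1 (-1.61, adjusted p = 0.163) and without mature cDC2 replicate 3 (-0.83, adjusted p = 0.173). The summed cDC2 markers in cDC1 were 2392 to 3425 in the spleen, 551 to 962 in immature and 2114 to 3624 in mature thymic samples. The part of cDC2 in the Cx3cr1 values of cDC1 was not tested.

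Ccr1 (ENSMUSG00000025804, chr9:123962124-123968692, minus strand), a receptor for CCL3, CCL5 and related chemokines, was low in cDC1, with normalized read counts of 54.6, 53.3, 56.3 and 46.6 in the spleen, 10.1, 8.33, 9.36 and 23.2 in immature and 0, 1.73 and 0 in mature thymic cells. In cDC2 it had 138, 123 and 88.0 in the spleen, 733, 915 and 760.1 in immature and 184, 190.0 and 51.8 in mature thymic cells. Thymic cDC2 were above and thymic cDC1 below their splenic counterparts, without overlap in either subset. The log2 fold change between organs was 2.79 (SE 0.51, adjusted p = 4.53e-04) in cDC2 and -2.08 (SE 0.44, adjusted p = 0.00249) in cDC1, where within lane 8 it was -1.98 (adjusted p = 0.150). With maturation Ccr1 fell in cDC2 (-2.70, SE 0.51, adjusted p = 1.83e-04) and in cDC1 (-3.18, SE 0.48, adjusted p = 8.32e-06). Mature cDC1 held 1 read against 51 in immature cells, a ratio of 30.1 (exact 95% counting interval 5.17 to 1212). As for Cx3cr1, the part of cDC2 in the cDC1 values was not tested.

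In cDC2 these 3 receptors were set beside macrophage and monocyte transcripts. The summed level of 10 such markers (Mertk, Fcgr1, C1qa, C1qb, C1qc, Cd14, Ly6c2, Vcan, Fn1 and Lyz2) was 34583, 42453 and 7457 in mature cDC2 replicates 1, 2 and 3. Replicate 3 was also the lowest of the group for Ccr2, Cx3cr1 and Ccr1. Replicate 2, with a higher sum than replicate 1, had higher Ccr2 and Ccr1 but lower Cx3cr1 (775 against 849.9). The sum was 332 to 1406 in mature cDC1, 2365 to 3410 in immature thymic cDC1, 24541 to 33511 in immature thymic cDC2 and 13461 to 20611 in splenic cDC2. Of the immature cDC2, splenic samples had lower sums, Ccr2 and Ccr1, but higher Cx3cr1 (2189 to 2434 against 1263 to 1623). Of the complement genes in the list C1qa, encoding a chain of complement C1q, had a mean of 3058 in mature and 2289 in immature thymic cDC2 against 360 in splenic cDC2. The part of macrophage or monocyte RNA in the 3 receptors was not tested, and whether the cDC2 sort left out F4/80+ cells is not given in the labels. Adgre1, which encodes F4/80, was not found under that name in the deposited data and is not in the sum. Without mature cDC2 replicate 3 the log2 fold change of mature against immature cDC2 was -3.69 (adjusted p = 0.00132) for Ccr2 and -2.09 (adjusted p = 0.00178) for Ccr1.

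**Figure D3:**
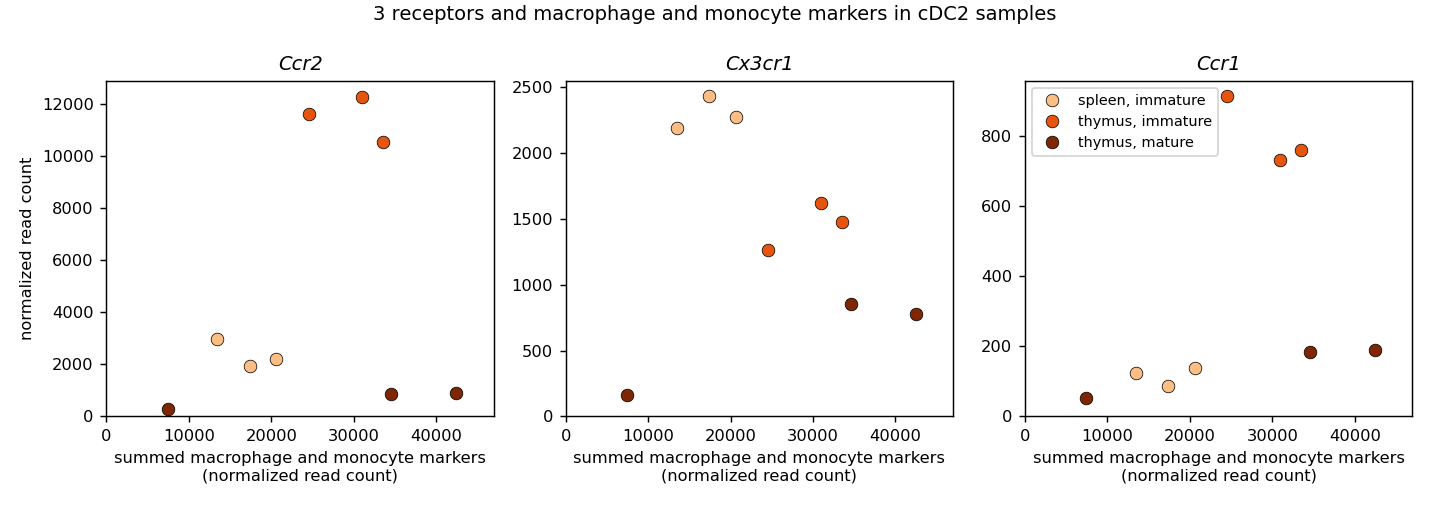
Normalized read count of Ccr2, Cx3cr1 and Ccr1 (vertical axes, linear) against the summed normalized read count of 10 macrophage and monocyte markers (horizontal axes, linear) in the 9 cDC2 samples. The mature sample at a marker sum of 7457 has the lowest value of each receptor, while the other two mature samples lie at 34583 and 42453 with values below those of immature thymic cDC2.

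Ccr9 and Cxcr4, receptors that guide lymphoid precursors to the thymus and hold cells in the bone marrow, were found in every group. Ccr9 (ENSMUSG00000029530, chr9:123678439-123784330, plus strand), the receptor for CCL25, had normalized read counts of 915, 1007, 672 and 995 in splenic cDC1, 1141, 928, 763 and 899 in immature thymic cDC1, and 291, 191 and 179 in mature cDC1. In cDC2 they were 105, 189 and 153 in the spleen, 568, 681 and 648 in immature and 149.7, 354 and 345 in mature thymic cells. Splenic cDC2 were lower than every other immature sample. The difference between organs was 4.24-fold in cDC2 (log2 fold change 2.11, SE 0.30, adjusted p = 2.61e-05) and 0.06 on the log2 scale (95% interval -0.48 to 0.59, adjusted p = 0.943) in cDC1. The cDC2 were below cDC1 in the spleen (-2.60, SE 0.28, adjusted p = 3.70e-07), and in the thymus the difference was -0.55 (95% interval -1.13 to 0.03, adjusted p = 0.192). Ccr9 fell with maturation in cDC1 (-2.10, SE 0.28, adjusted p = 1.62e-06) and in cDC2 (-1.26, SE 0.30, adjusted p = 0.00150), where without mature replicate 1 the change was below 2-fold (-0.85). As Ccr9 also marks plasmacytoid dendritic cells, 8 other transcripts of these cells were summed, which gave 5343 to 5570 in splenic, 11543 to 13024 in immature thymic and 11035 to 15002 in mature thymic cDC2. In cDC1 the sums were 2855 to 3534 in splenic, 4422 to 5218 in immature thymic and 5995 to 9669 in mature thymic samples. Siglech, from this list, had means of 86.4, 889 and 38.2 in the 3 cDC2 groups in the same order. Its mean was lower in mature than in immature thymic cDC2, while that of the whole sum was not (13659 against 12306). The part of plasmacytoid cells in the Ccr9 values was not tested. Of the annotated exons of Ccr9, 18.8% overlap a transcript of the opposite strand, AC165425.1, and 2.62% the lincRNA Gm17200 on the same strand, which had at most 14.6 and 30.5 normalized reads in any sample. The strand setting of the read counting is not given in the sources used here.

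Cxcr4 (ENSMUSG00000045382, chr1:128588199-128592293, minus strand), the receptor for CXCL12, had normalized read counts of 3288, 3535, 3691 and 3036 in splenic cDC1, 1550.1, 1851, 1567 and 1939 in immature thymic cDC1, and 614, 350.1 and 1293 in mature cDC1. In cDC2 the values were 8265, 5971 and 7991 in the spleen, 4393, 5655 and 4296 in immature and 3185, 3821 and 2053 in mature thymic cells. As for Cx3cr1, both subsets went down from spleen to immature to mature thymus without overlap between neighbours. These steps were smaller. The fall with maturation passed the threshold in cDC1 (log2 fold change -1.40, SE 0.29, adjusted p = 3.25e-04), where it was below 2-fold without mature replicate 2 (-0.95), and not in cDC2 (-0.70, SE 0.31, adjusted p = 0.0712, below 2-fold). The difference between organs was -0.97 (SE 0.27, adjusted p = 0.0178) in cDC1 and -0.63 (SE 0.31, adjusted p = 0.171) in cDC2, neither reaching 2-fold. In cDC1 it lay close to that limit, at -1.03 to -0.93 with a sample left out. There it passed by limma with lane as a term (-1.004, adjusted p = 0.0201) and did not within lane 8 (-0.91, adjusted p = 0.273). In each organ and state Cxcr4 was higher in cDC2, by 2.19-fold in the spleen (1.12, SE 0.29, adjusted p = 0.00643, and 0.190 within lane 8), 2.77-fold in immature thymic cells (1.46, SE 0.29, adjusted p = 6.74e-04) and 4.01-fold in mature cells (2.16, SE 0.31, adjusted p = 3.48e-05).

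Ccr6 (ENSMUSG00000040899, chr17:8236043-8257141, plus strand), the receptor for CCL20, was, of the 8 receptors other than Ccr7, the one that rose with maturation in cDC1. Its normalized read counts were 8.24, 8.88, 6.46 and 3.36 in splenic cDC1, 32.9, 29.2, 3.12 and 23.2 in immature thymic cDC1, and 35.0, 113 and 148 in mature cDC1. In cDC2 they were 98.8, 103 and 88.0 in the spleen, 173, 222 and 217 in immature and 369, 292 and 323 in mature thymic cells. The mature samples lay above the immature thymic ones in both subsets, in cDC1 by a narrow gap, 35.0 against 32.9. The rise was 2.25 on the log2 scale (SE 0.59, adjusted p = 0.00270) in cDC1, whereas the difference of 0.69 (95% interval -0.63 to 2.00, adjusted p = 0.399) in cDC2 did not pass the threshold. Ccr6 was higher in cDC2 than in cDC1 in the spleen (3.72, SE 0.59, adjusted p = 6.01e-05), in immature thymic cells (3.51, SE 0.59, adjusted p = 1.24e-04) and in mature cells (1.95, SE 0.63, adjusted p = 0.0296), the last of which was 1.33 (adjusted p = 0.165) without mature cDC1 replicate 1. Between organs the log2 fold change was 1.28 (adjusted p = 0.159) in cDC1, and 1.98 (adjusted p = 0.00310) without immature thymic cDC1 replicate 3, which held 2 Ccr6 reads. In cDC1 it also passed by edgeR (1.83, adjusted p = 0.0178) and DESeq2 (1.83, adjusted p = 0.00166). In cDC2 the samples of both organs did not overlap, and the change of 1.06 (SE 0.63, adjusted p = 0.267) did not pass by limma or by edgeR (adjusted p = 0.124) and passed by DESeq2 (adjusted p = 0.0736). These levels rested on 2 to 481 reads per library.

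The starts of these genes were looked at for motifs of factors known in dendritic cells. RefSeq promoters (GRCm38.p6) of 250 bases before a start were found for 8 of the 9 receptors, 9 starts in all, with none for Ccr7. On both strands the letters searched, with N for any base, were GGG, NN, T, NN and CC in a row for NF-kappaB, GAAA, NN and GAAA for ISRE, GGAA, NN and GAAA for EICE, which overlaps ISRE in all letters but the second, and TGANTCA for AP-1. They were held by 15.9%, 2.98%, 2.30% and 6.75% of 32851 promoters of the same length. Among the 9 starts, NF-kappaB letters were found at 2 and the other 3 motifs at none. With 9 starts, this count cannot be told from the 15.9% of all promoters. The 2 starts with a match, of Ccr6 and Cxcr3, are shown with the matching letters in capitals. Ccr6 has 2 starts, and the one shown lies within the annotated gene. The other, chr17:8235793-8236042, before the annotated gene, held no match.
Ccr6, chr17:8242276-8242525, plus strand: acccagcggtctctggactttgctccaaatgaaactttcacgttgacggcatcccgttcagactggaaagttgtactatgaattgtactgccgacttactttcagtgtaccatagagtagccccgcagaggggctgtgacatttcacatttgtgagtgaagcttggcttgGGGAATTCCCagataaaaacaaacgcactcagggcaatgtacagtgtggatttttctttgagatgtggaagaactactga
Cxcr3, chrX:101734148-101734397, minus strand: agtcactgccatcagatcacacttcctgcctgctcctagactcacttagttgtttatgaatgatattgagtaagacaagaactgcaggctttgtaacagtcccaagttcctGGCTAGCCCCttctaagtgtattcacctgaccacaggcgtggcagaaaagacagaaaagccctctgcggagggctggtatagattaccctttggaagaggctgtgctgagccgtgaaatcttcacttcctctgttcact
The match begins 80 bases before the start shown for Ccr6 and 139 bases before that of Cxcr3. Binding was not measured in these samples.

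Maturation of thymic cDCs thus went with lower levels of most of the 8 receptors that were not the gate. The threshold was an adjusted p below 0.1 in limma with at least a 2-fold change. In cDC1, 8 of 8 passed, 1 higher (Ccr6) and 7 lower, where 45.7% of the 14970 genes tested passed, 21.3% higher and 24.5% lower. The median log2 fold change of the 8 was -3.26, or -3.34 with Ccr1 and Cxcr3 set to a floor of 3 reads over the mature group, against -0.04 for all genes tested. In cDC2, 6 of 8 passed, all of them lower, where 35.6% of genes passed, 18.6% higher and 17.0% lower. The median was -1.86 against 0.04 for all genes. Ccr6 and Cxcr4 were the 2 that did not pass in cDC2. Without mature cDC2 replicate 3, 5 of 8 passed. Scaling to total reads in place of the size factors moved the median of all genes by -0.29 in cDC1 and -0.30 in cDC2, and the share of higher genes among those called from 46.5% to 36.3% in cDC1 and from 52.2% to 38.7% in cDC2. Under that scaling 8 of 8 and 7 of 8 receptors passed.

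On all 20 samples the fall was deeper in cDC1 than in cDC2 for Xcr1 and Ccr2, as far as the difference between both effects was tested. Of the 8 receptors 3 passed this test, where 13.6% of all genes did, 8.34% higher and 5.25% lower in cDC2. The difference was 2.09 on the log2 scale (SE 0.59, adjusted p = 0.0222) for Xcr1, 3.43 (SE 1.05, adjusted p = 0.0357) for Ccr2 and 6.83 (SE 0.60, adjusted p = 3.16e-07) for Cxcr3, the last of them resting on mature groups with 1 and 13 reads. Immature thymic means of Cxcr3 were 603 in cDC1 and 17.3 in cDC2. From so low a start, Cxcr3 could not have fallen as far in cDC2 on this scale, so its difference does not compare the effects of maturation. Within lane 8 only Cxcr3 passed, with 1.48 (adjusted p = 0.114) for Xcr1 and 3.33 (adjusted p = 0.179) for Ccr2. Without mature cDC1 replicate 3, 5 of 8 passed. For the other 5 receptors the difference ranged from -1.56 for Ccr6 to 1.73 for Cx3cr1 and did not pass.

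**Figure D4:**
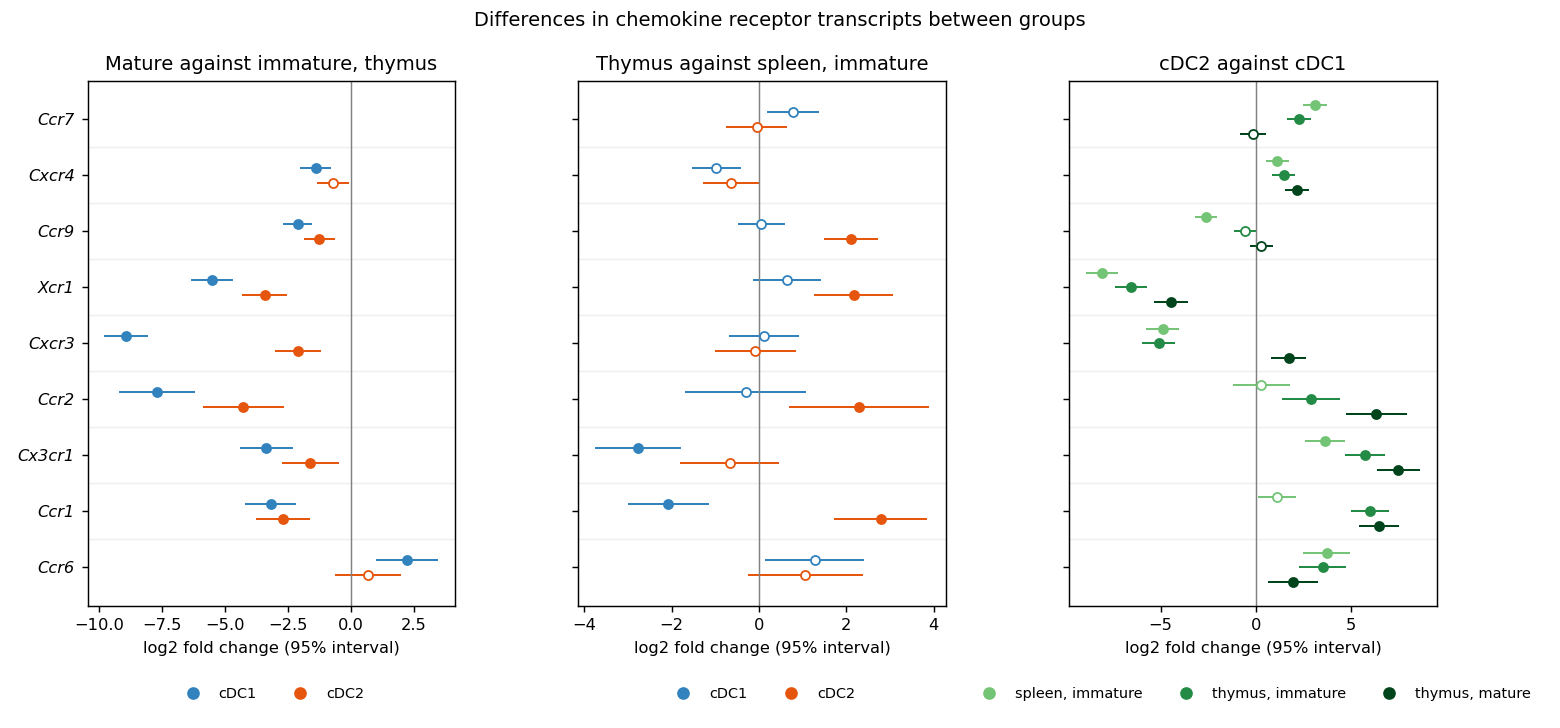
Log2 fold change on the scale of log2(normalized read count + 1) with its 95% interval (horizontal axes) for the receptors (vertical axis) in the comparisons of maturation, organ and subset, where filled points passed an adjusted p of 0.1 and 2-fold and open points did not. Ccr7 is left out of the first panel because it was the gate, and the intervals of Ccr1 lie on opposite sides of 0 for thymus against spleen in cDC1 and cDC2.

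Between organs, the receptors that passed the threshold in limma on all 20 samples were lower in the thymus in cDC1 and higher in cDC2. In cDC1, 2 of 9 passed, Cx3cr1 and Ccr1, both lower in the thymus, where 8.77% of genes passed, 4.26% higher and 4.52% lower. By edgeR and by DESeq2 Ccr6 passed too, higher in the thymus (1.83 by both). The median log2 fold change of the 9 was 0.06 against 0.00 for all genes. In cDC2, 4 of 9 passed, Xcr1, Ccr2, Ccr1 and Ccr9, all higher in the thymus, where 14.2% of genes passed, 8.3% higher and 5.87% lower. The median was 1.06 against 0.02. Each of these comparisons shares its immature thymic samples with the comparison of maturation in the same subset. The difference between the effects in cDC2 and cDC1 was tested directly, and 2 of 9 receptors passed, both higher in cDC2, where 4.98% of genes did, 3.27% higher and 1.71% lower. It was 4.87 on the log2 scale (SE 0.67, adjusted p = 1.22e-04) for Ccr1 and 2.05 (SE 0.39, adjusted p = 0.00254) for Ccr9. The Ccr9 value was 2.04 (adjusted p = 0.173) within lane 8 and 1.75 (adjusted p = 0.223) within lane 5. By the edgeR and DESeq2 tests on recovered reads 5 of 9 passed, with Xcr1, Ccr2 and Cx3cr1 added.

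Between subsets, Xcr1 was lower and Cx3cr1, Ccr6 and Cxcr4 were higher in cDC2 in each of the 3 comparisons. In the spleen 7 of 9 passed, 4 higher and 3 lower in cDC2, where 16.6% of genes passed, 9.93% higher and 6.7% lower. Xcr1 (log2 fold change -8.09, SE 0.40), Cxcr3 (-4.90, SE 0.41) and Ccr9 were the lower ones, and Ccr7, Cx3cr1 (3.64, SE 0.51), Ccr6 and Cxcr4 the higher ones. Ccr1 (1.11, SE 0.48, adjusted p = 0.105) did not pass by limma, and did by edgeR (adjusted p = 0.0326) and DESeq2 (adjusted p = 0.0120). In immature thymic cells 8 of 9 passed, 6 higher and 2 lower in cDC2, where 16.4% of genes passed, 11.0% higher and 5.42% lower. Here Ccr2 (2.89, SE 0.72, adjusted p = 0.00500) and Ccr1 (5.98, SE 0.48, adjusted p = 7.85e-09) joined the higher ones, with Cx3cr1 at 5.75 (SE 0.51). In mature cells 7 of 9 passed, 6 higher and 1 lower in cDC2, where 18.9% of genes passed, 14.6% higher and 4.36% lower. Xcr1 was the lower one (-4.46, SE 0.43, adjusted p = 3.26e-07). Among the higher ones were Cx3cr1 (7.48, SE 0.54), Ccr2 (6.32, SE 0.77) and Ccr1, of which mature cDC2 had 579 reads against 1 in mature cDC1, a ratio of 342 (exact 95% counting interval 61.1 to 13529). Cxcr3 had 13 reads against 1, a ratio of 7.68 (exact 95% counting interval 1.15 to 326), and its fitted change of 1.73 (adjusted p = 0.00686) was 0.44 (adjusted p = 0.332) with a pseudocount of 8. The medians of the 9 were 1.11 in the spleen, 2.27 in immature and 1.95 in mature thymic cells, against 0.02, 0.01 and 0.14 for all genes.

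The receptors also resembled one another in part. Over the 20 samples, as a description of samples that share groups, Pearson's r of log2 levels was 0.93 for Cx3cr1 with Ccr1, 0.92 for Cx3cr1 with Cxcr4 and 0.82 for Xcr1 with Cxcr3, and -0.93 for Ccr7 with Cxcr3. Of the 9 genes 5 lie on chromosome 9, and Xcr1, Ccr1 and Ccr2 lie close together there. How reads that fit more than 1 gene were counted is not given in the sources used here. Among 10213 genes with a mean of at least 100, those most like 8 of the receptors were Mreg for Ccr7 (0.99), Clnk for Xcr1 (0.98), Ppt1 for Cxcr3 (0.98), Ctsa for Cx3cr1 (0.97), Rgl1 for Cxcr4 (0.97), Cd33 for Ccr1 (0.95), Ddx60 for Ccr6 (0.95) and Pkib for Ccr9 (0.95). Lyz2, the lysozyme gene of myeloid cells, was among the 3 most like genes of both Cx3cr1 (0.97) and Ccr1 (0.94).

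Of 13 other chemokine and atypical receptors 6 were measured well enough to be tested. With maturation 4 rose in cDC1, Cxcr5, Cxcr1, Ccrl2 and Ccr4, and none fell, where 21.3% of all genes rose and 24.5% fell. In cDC2, 2 rose, Cxcr5 and Cxcr1, and 1 fell, Cxcr2, where 18.6% of genes rose and 17.0% fell. Cxcr5, the CXCL13 receptor that leads cells to B cell follicles, had a log2 fold change of 5.90 in cDC1 and 4.74 in cDC2. Ccrl2, an atypical receptor that binds chemerin, rose in cDC1 (2.87) and was 0.19 in cDC2, where its mean was 2893 in immature and 3357 in mature thymic cells, against 437 in immature thymic cDC1. Between organs 1 fell in cDC1, Ccr3, where 8.77% of genes passed. In cDC2, Cxcr2 and Ccr4 rose and Ccr3 fell, where 14.2% passed. Cxcr2, a receptor for neutrophil chemokines, was 8.11 higher on the log2 scale in thymic than in splenic cDC2, in samples that held at most 6 reads of each of 4 neutrophil markers, Ly6g, S100a8, S100a9 and Retnlg. Between subsets 1 of the 6 was higher in splenic cDC2 (Ccrl2) and none lower, 4 were higher in immature thymic cDC2 and none lower, and in mature cells none was higher and 1 lower (Cxcr1), where 16.6%, 16.4% and 18.9% of all genes passed. Cxcr1, Ccr4 and Ccr3, all with means below 100, were named after their values were seen.

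Of 18 ligands of the 9 receptors 14 were tested. With maturation 3 rose and 6 fell in cDC1, and 3 rose and 7 fell in cDC2, where 45.7% and 35.6% of all genes passed. Ccl5, a ligand of CCR1, rose by 10.03 and 7.42 on the log2 scale and Cx3cl1, the ligand of CX3CR1, by 5.39 and 3.28, while Ccl3 (-5.16 and -2.54) and Ccl4 (-5.04 and -3.95) fell. The third to rise was Ccl9 in cDC1 (2.45) and Ccl25 in cDC2 (1.02), both named after their values were seen. Of 33 genes that carry the signal of these receptors, 5 rose and 13 fell in cDC1, where 45.7% of all genes passed, and 6 rose and 12 fell in cDC2, where 35.6% passed. Gng2, a G protein subunit (-4.91 and -3.04), Plcb2, a phospholipase (-4.74 and -3.69), and Itpr1, a calcium channel (-4.91 and -3.43), were among those that fell in both. Named after their values were seen, the 5 that rose in cDC1 were Gnai3, Arrb2, Grk5, Prex1 and Ptk2b, and these rose in cDC2 too. Between subsets 5 of the 33 were higher in splenic cDC2 and none lower, 3 were higher and 3 lower in immature thymic cDC2, and 7 were higher and none lower in mature cDC2, where 16.6%, 16.4% and 18.9% of all genes passed.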

How the data were processed

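RNAseq was made from 21 libraries of FACS-sorted mouse cDCs pooled between animals. Per the labels and the study's methods, the authors prepared stranded mRNA libraries, trimmed reads (Cutadapt), used STAR 2.6 for alignment to mm10, counted reads per Ensembl gene with HTSeq and divided the counts by the size factors of DESeq2 1.24.0. The Ensembl release and strand setting are not given in the sources used here. The deposited values are thus a signal, read counts divided by a factor per library, from which whole reads were recovered for 100% of values, within 0.01 reads. Groups came from the labels.

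The values were tested as log2(value + 1) with limma 3.58.1 (limma-trend, R 4.3.3) over all 6 groups and 20 samples, for 14970 genes with at least 10 in at least 3 samples. Genes were called at a Benjamini-Hochberg adjusted p below 0.1 with a change above 2-fold. Fold changes on this scale understate the change of low genes. A difference between effects was an interaction term. Fold values are ratios of group means. Ratios given with a counting interval instead compare the reads pooled over the libraries of each group, scaled by their size factors. Intervals of ratios cover counting error only. Nothing states separate mice for all pools, so p-values measure the spread between these samples.

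Alternatives were edgeR 4.0.16 and DESeq2 1.42.0 on recovered reads, pseudocounts of 0.1 and 8, other scalings, filters, thresholds, samples and lanes, a block on pool number, and leaving out each sample. For maturation edgeR called 6769 genes in cDC1 and 5347 in cDC2, against 6848 and 5329 by limma. The steps were tested on simulated data. Immature thymic cDC1 replicates 3 and 4 share labels but differed as much as other pairs and were kept apart. Positions are from GENCODE M21, in which 37607 of 37734 identifiers were found.

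The named genes were the 9 receptors, the gene most like 8 of them (Pearson's r over 20 samples), and from each list at most 4 per comparison that were called and had a mean of at least 100 in a group, by size of change. The receptors and lists were chosen with earlier results of these data known, and the motifs after the promoters were seen. Some items are not reported here and were left out of lists and sums.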

Additional observations from a re-analysis of the deposited data

Results flagged for a closer look

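In immature thymic cDC1 the highest Ccr1 sample, at a normalized read count of 23.2, lay far from the other 3 samples, which were at 8.33 to 10.1. It was the only such sample among 18 groups of 4 samples looked at, and chance gives about 1 in 20.

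The change with maturation differed between cDC2 and cDC1 by 2.09 on the log2 scale for Xcr1, 3.43 for Ccr2 and 6.83 for Cxcr3, each tested as an interaction term. For Cxcr3 the low level in immature thymic cDC2, a mean of 17.3, left little room for a fall there. The change between thymus and spleen differed between cDC2 and cDC1 by 4.87 for Ccr1 and 2.05 for Ccr9, tested in the same way.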

How the results depend on the processing

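For the number of receptors past the threshold, 135 values came from alternatives other than leaving out each sample, some of them on fewer samples. Of these, 126 were within 1.5 times the reported number, and of 74 that left out 1 sample, 73 were. The 2 receptors for thymic against splenic cDC1 became 1 within lane 8 and 4 with no fold threshold. The 3 whose change with maturation differed between subsets became 1 within lane 8, and ranged from 3 to 5 when a sample was left out, with 5 without mature cDC1 replicate 3. The 2 whose change between organs differed became 5 by edgeR and by DESeq2, 4 with a pseudocount of 8 and 4 with only the groups compared in the fit. The cause of these changes was not tested.

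Signs turned only for changes that did not pass the threshold. For thymic against splenic cDC1, Ccr9 was -0.073 to 0.15 with a sample left out, and Cxcr3 was -0.17 within lane 8 and -0.11 to 0.27 with a sample left out. For cDC2, Ccr7 was 0.033 scaled to total reads and -0.45 to 0.27 with a sample left out, and Cxcr3 was 0.013 by edgeR, 0.23 within lane 8 and -0.29 to 0.27 with a sample left out. For splenic cDC2 against cDC1, Ccr2 was -0.022 to 0.48 with a sample left out. For the difference between effects, Ccr1 with maturation was -1.39 with a pseudocount of 8 (adjusted p = 0.0727 by limma, past the threshold), Ccr6 between organs was 0.12 with a pseudocount of 8 and -0.92 to 0.094 with a sample left out, and Cxcr3 between organs was 0.40 within lane 8 and -0.41 to 0.15 with a sample left out.

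Samples with the same pool number did not deviate together in every pair (r from -0.078 to 0.46 in the spleen and -0.15 to 0.28 in the thymus), so the number was not taken as a pairing. With it as a replicate block, 8 in place of 7 receptors passed between splenic subsets, with Ccr1 added (1.12, adjusted p = 0.00575 by limma), and 8 still passed between immature thymic subsets. A block added after the data were seen, for the differences between effects, gave 5 in place of 2 receptors between organs and 1 in place of 3 with maturation, where Cx3cr1 (-0.48), Ccr1 (-0.31) and Cxcr4 (-0.79) turned sign. The mature groups share 1 pool number, so that last fit rests on few samples. No paired analysis was possible because the groups shared fewer than 2 pool numbers in the other comparisons. Depth limits Ccr1 and Cxcr3 in mature cDC1, with 1 read each in 3 libraries, where the ratio and not the fitted change is to be read.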
